A study of Danio rerio with 6 samples.

Results

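Bulk RNA-seq compared sorted tumour cells of lck-IRF4 zebrafish with normal thymus of lck-mCherry zebrafish, to find which genes and gene families differed between IRF4-driven T-cell tumours and the tissue that the lck promoter marks in healthy fish. The comparison used 4 of the 6 libraries of the series, 2 per group, chosen by their labels and not by any measured value. The lck-IRF4 fish carried human IRF4 and mCherry under the zebrafish lck promoter, were labelled with no p53 mutation and were 10 months old. Their tumour cells were sorted on mCherry after the lymphoma phenotype had developed. The lck-mCherry fish carried mCherry alone under the same promoter, and their thymus was harvested as a control. The sources used here do not give the age of the control fish, and the labels do not say whether control thymus cells were sorted. The study reports that control fish lost the mCherry signal with age as the thymus regressed. The groups differed in tissue and perhaps in age, which cannot be told apart from the genotype here. The remaining 2 libraries came from lck-IRF4;p53+/- tumours, which also carried 1 mutant p53 allele. They entered the model, where they shared in the choice of genes tested, the scaling and the estimate of the spread. They are given below for a few genes. No library was treated with a drug. Nothing in the labels says that libraries of a group came from different fish. The p-values here therefore measure the spread between these libraries, which is not known to be the spread between fish.

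IRF4 is a transcription factor of lymphocytes that binds DNA together with partners such as BATF, JUN and PU.1. In mammals it is induced by antigen-receptor signalling and steers the differentiation of T and B cells. In the thymus, precursors lacking CD4 and CD8 rearrange T-cell receptor genes, pass through a stage with both co-receptors and then keep only 1 of them. The lck gene, whose promoter drove the transgenes, encodes the kinase that starts signalling from the T-cell receptor.

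Levels are given as CPM, the recovered gene counts of a library divided by its TMM-scaled total and put on a common scale, in the order of replicate 1 and replicate 2. Whole gene counts were recovered from the deposited tables for 23151 of 23228 genes with any signal. The other 77 genes, all abundant, had no unique solution and held 37.7% of the summed mean level, so gata3, btg1, btg2, stk17al, ccr9a, mki67 and most mitochondrially encoded genes have no values here. Recovered totals were 7941563 and 6072102 counts in lck-IRF4 libraries and 7842272 and 7261813 in lck-mCherry libraries. Libraries of a group correlated at r = 0.914 for lck-IRF4 and r = 0.926 for lck-mCherry, on log2(CPM + 1) across genes, and pairs across the 2 groups at r = 0.832 to 0.894. The tables list the zebrafish genes irf4a and irf4b and no row for human IRF4 or mCherry, so the transgenes themselves were not measured here.

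At an adjusted p under 0.05 (edgeR quasi-likelihood test, Benjamini-Hochberg), 134 of 14123 genes tested were called, or 0.949%. Of these, 100 genes (0.708% of those tested) rose and 34 (0.241%) fell in lck-IRF4 tumours. Before adjustment, 2626 genes, or 18.6%, had p under 0.05. In all 134 called genes both lck-IRF4 libraries lay on the same side of both lck-mCherry libraries. Across all genes tested, both lck-IRF4 libraries lay above both controls in 24.7% and below both in 22.1%, and the median log2 fold change was 0.0022. Counts of list members called, or above or below both controls, given further on, are to be read beside these shares of all genes tested. Leaving out lck-mCherry replicate 1 or lck-mCherry replicate 2, which cuts that group to 1 library, left 0 calls, with 2397 and 2797 genes at an unadjusted p under 0.05. Without lck-IRF4 replicate 1 there were 48 calls, and without 1 or the other lck-IRF4;p53+/- library 406 and 367. The same comparison gave 10 calls by limma-voom and 1388 by DESeq2. With limma-voom, myca, irf1b, mhc1laa, lgals3bpb and cacna1aa were the named genes that kept the call.

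**Figure D1:**
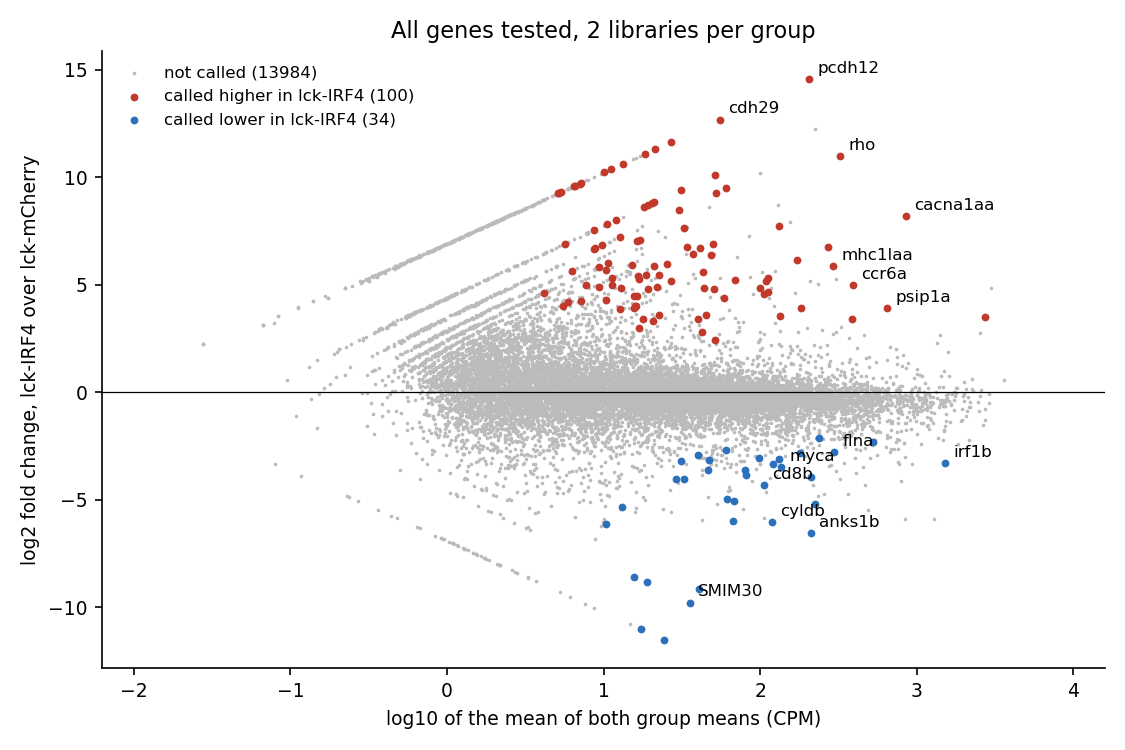
Each point is a gene tested, with the log10 of the mean of both group means (CPM) on the x axis and the log2 fold change of lck-IRF4 over lck-mCherry on the y axis; genes at 0 in all 4 libraries are not drawn. The 100 genes called higher (red) reach further from 0 than the 34 called lower (blue), and the diagonal lines are genes at or near 0 counts in 1 group, whose fold is set by the prior count.

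T-cell identity was checked first. The T-cell list held 29 genes, of which 26 were tested. Genes of the T-cell receptor signalling module were abundant in both groups. The receptor kinase gene lck had 2649 and 2052 CPM in lck-IRF4 tumours, against 1980.0 and 1374 CPM in lck-mCherry thymus. Its partner kinase zap70 had 1674 and 1598 CPM in tumours and 1319 and 2080.4 CPM in thymus. Neither was called (adjusted p = 0.53 and 0.96), and zap70 values overlapped between the groups. The T-lineage gene themis had 1328 and 1603 CPM in tumours and 2043 and 3364 CPM in thymus (adjusted p = 0.34), and the T-lineage factor gene bcl11ba had 667 and 508 CPM in tumours and 701 and 408 CPM in thymus (adjusted p = 0.94). The summed level of the list was 12916 and 15042 CPM in tumours and 19298 and 17232 CPM in thymus. Of the 26 genes, 1 was called, beside 0.949% of all genes tested. Both tumours lay below both controls in 13 and above both in 1, beside 22.1% and 24.7% of all genes tested.

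The 1 gene called in that list was cd8b. It encodes a chain of the CD8 co-receptor of double-positive and cytotoxic T cells and had 12.3 and 7.75 CPM in tumours, against 247 and 157 CPM in thymus. Its level fell 19.97-fold (log2 fold change -4.32 ± 0.61 SE, adjusted p = 0.032), and both tumours lay far below both controls. The other chain, cd8a, had 282 and 347 CPM in tumours and 1268 and 838 CPM in thymus (log2 fold change -1.75 ± 0.54, adjusted p = 0.15). Transcripts of cd4-1, the helper co-receptor, were at 1.45 and 2.06 CPM in tumours and 35.6 and 12.8 CPM in thymus (-3.79 ± 0.88, adjusted p = 0.090). Neither cd8a nor cd4-1 passed the test, although the groups did not overlap for either gene. The recombinase gene rag2 had higher values in tumours, 544 and 1050.5 CPM, than in thymus, 276 and 325 CPM (adjusted p = 0.20). In contrast, dntt, whose enzyme adds bases at receptor joints, had 0.334 and 0.950 CPM in tumours and 10.3 and 2.56 CPM in thymus (adjusted p = 0.21). The genes rag1 and rorc had log2 fold changes of -0.27 and -1.58, neither called. These are the 7 double-positive stage genes tested, with a median of -1.74. Both tumours lay below both controls in 5 and above both in 1, beside 22.1% and 24.7% of all genes tested. In whole-RNA libraries, fewer cells of a type and less RNA per cell cannot be told apart.

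T-cell receptor genes were the family with the lowest median. Of 109 such genes, 55 were tested, none was called, and their median log2 fold change was -3.08. Both tumours lay below both controls in 39 of the 55 and above both in 4, beside 22.1% and 24.7% of all genes tested. Members near 0 in the tumours were tested mainly through the thymus, so the median and these counts are descriptions. The low ones were mainly variable segments of the alpha and delta chains. For example, tradv1 had 0.111 and 0 CPM in tumours and 6.26 and 6.41 CPM in thymus (adjusted p = 0.082), and tradv30.0.1 had 1.33 and 0.633 CPM in tumours and 23.3 and 12.7 CPM in thymus (adjusted p = 0.079). The delta constant gene trdc was at 33.6 and 78.8 CPM in tumours, against 557 and 395 CPM in thymus (adjusted p = 0.10). In all, 9 of the 55 had a positive log2 fold change. Gamma-chain segments made up the 4 genes in which both tumours lay above both controls. The highest level among them was that of trgv1, with 231 and 259.9 CPM in tumours and 5.24 and 4.48 CPM in thymus (log2 fold change 5.65 ± 1.29, adjusted p = 0.088). The segment trgv5 had 37.8 and 91.6 CPM in tumours and 11.8 and 9.61 CPM in thymus (adjusted p = 0.083). Clone-named genes were not counted in the family, among them si:dkeyp-13d12.23, which was called higher and is given with the most abundant genes. The study's primers for gamma-chain segments also covered other genes named after that clone. Segments of this family are near-identical copies, and how the counting split reads between them is uncertain.

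Among interferon regulatory factors, irf1b (ENSDARG00000043249.7), the zebrafish counterpart of a factor induced by interferon, fell. It had 306 and 253 CPM in lck-IRF4 tumours and 2829 and 2671 CPM in lck-mCherry thymus (9.85-fold lower, log2 fold change -3.30 ± 0.40, adjusted p = 0.027). A second gene listed under the same symbol had 48.0 and 54.9 CPM in tumours and 34.9 and 68.4 CPM in thymus, with overlapping groups. The zebrafish irf4b gene was at 7.56 and 11.6 CPM in tumours and 284 and 49.5 CPM in thymus (-4.13 ± 1.01, adjusted p = 0.099). The paralog irf4a was at 30.1 and 44.3 CPM in tumours and 109 and 19.9 CPM in thymus, and those values overlapped. Over the 11 factors tested, 1 was called lower. Both tumours lay below both controls in 6 and above both in 1, beside 22.1% and 24.7% of all genes tested.

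The list of known partners and effectors of IRF4 held 26 genes, 21 of them tested, with 1 called lower and a median log2 fold change of -1.16. Both tumours lay below both controls in 12 and above both in 4, beside 22.1% and 24.7% of all genes tested. Of the 21, 6 had a positive log2 fold change. The PU.1 genes spi1a and spi1b were among these, at 0.56 and 1.42, and neither was called. The AP-1 factor gene batf was at 3.67 and 2.37 CPM in tumours and 144 and 34.4 CPM in thymus (-4.87 ± 1.07, adjusted p = 0.082). Another AP-1 gene, junba, had 167 and 152 CPM in tumours and 769.5 and 978 CPM in thymus (-2.45 ± 0.43, adjusted p = 0.052). The 1 member called was myca, described with the Myc network.

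Immediate-early genes encode factors switched on within minutes of a stimulus. None of 39 tested was called, and the median log2 fold change was -1.50. Both tumours lay below both controls in 24 and above both in 3, beside 22.1% and 24.7% of all genes tested. The spread between libraries of a group was wide. The orphan receptor gene nr4a1, a common readout of T-cell receptor signalling, had 11.8 and 20.1 CPM in tumours and 736 and 172 CPM in thymus (adjusted p = 0.13). The zinc-finger gene egr3 had 194 and 174 CPM in tumours and 1727 and 1256 CPM in thymus (adjusted p = 0.18), and fosl2 had 125 and 45.7 CPM in tumours and 2173 and 839.6 CPM in thymus (adjusted p = 0.11). Members of this list that differed little included egr1, at 532 and 559 CPM in tumours and 585 and 598 CPM in thymus. Many of these genes respond to handling of cells, and tumours were sorted while the labels do not say whether controls were, so a difference in preparation and the genotype cannot be told apart.

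The NF-kB pathway carries signals from antigen and TNF receptors to the nucleus. Of its 33 genes tested, 1 was called, beside 0.949% of all genes tested. The called gene was cyldb, a paralog of the deubiquitinase gene that restrains the pathway in mammals. It had 5.23 and 1.74 CPM in tumours, against 314 and 151 CPM in thymus (65.5-fold lower, log2 fold change -6.03 ± 0.77, adjusted p = 0.027). The paralog cylda had 22.0 and 29.9 CPM in tumours and 20.8 and 43.9 CPM in thymus, with overlapping groups. The median of the 33 was -1.45, and both tumours lay below both controls in 18, beside 22.1% of all genes tested. Several of the others rested on lck-mCherry replicate 1, where relb had 952 CPM against 50.8 CPM in replicate 2, with 47.3 and 46.5 CPM in tumours.

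Among 19 TNF ligands and receptors tested, 1 was called, beside 0.949% of all genes tested. The ligand gene tnfsf14, known in mammals as LIGHT, rose to 147 and 75.7 CPM in tumours, against 5.53 and 4.96 CPM in thymus (21.2-fold, log2 fold change 4.41 ± 0.61, adjusted p = 0.031). Both tumours lay above both controls in 6 of the 19 and below both in 8, beside 24.7% and 22.1% of all genes tested. The receptor genes tnfrsfa and tnfrsf9b had the lowest fold changes of the family. Of these, tnfrsf9b had 45.5 and 43.5 CPM in tumours and 1598 and 188 CPM in thymus (adjusted p = 0.26). Transcripts of tnfrsfa were at 5.56 and 1.58 CPM in tumours and 374 and 44.5 CPM in thymus (adjusted p = 0.12).

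In cytokine signalling through the common gamma chain and STAT5, 1 of 31 genes tested was called, beside 0.949% of all genes tested. The feedback inhibitor gene cish, a direct STAT5 target in mammals, fell to 11.7 and 12.3 CPM in tumours, against 77.8 and 217 CPM in thymus (12.3-fold lower, -3.62 ± 0.58, adjusted p = 0.044). The receptor gene il10rb lay at the threshold without passing it, with 127 and 76.8 CPM in tumours and 622 and 568 CPM in thymus (adjusted p = 0.0501). The receptor gene il7r had 1291 and 2748 CPM in tumours and 779 and 1576 CPM in thymus, and its groups overlapped. Other receptor genes with a positive log2 fold change were il6r (2.48), both genes listed as il4r.1 (0.97 and 1.33) and il2rb (0.41), none of them called. In all, 7 of the 31 genes had a positive log2 fold change. The list's median was -1.12. Both tumours lay below both controls in 15 genes and above both in 2, beside 22.1% and 24.7% of all genes tested.

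The Myc network had 1 call among 15 genes tested, beside 0.949% of all genes tested. Transcripts of myca, which encodes a Myc transcription factor paralog, fell to 21.4 and 24.1 CPM in tumours, against 269.6 and 231 CPM in thymus (11.0-fold lower, -3.46 ± 0.42, adjusted p = 0.027). The paralog mycb was far more abundant, at 1274 and 1401 CPM in tumours and 598 and 922 CPM in thymus (log2 fold change 0.81 ± 0.51, adjusted p = 0.46). Both tumours lay above both controls for mycb and below both for myca. A further paralog, mych, had 29.8 and 24.1 CPM in tumours and 153 and 112 CPM in thymus (adjusted p = 0.12).

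**Figure D2:**
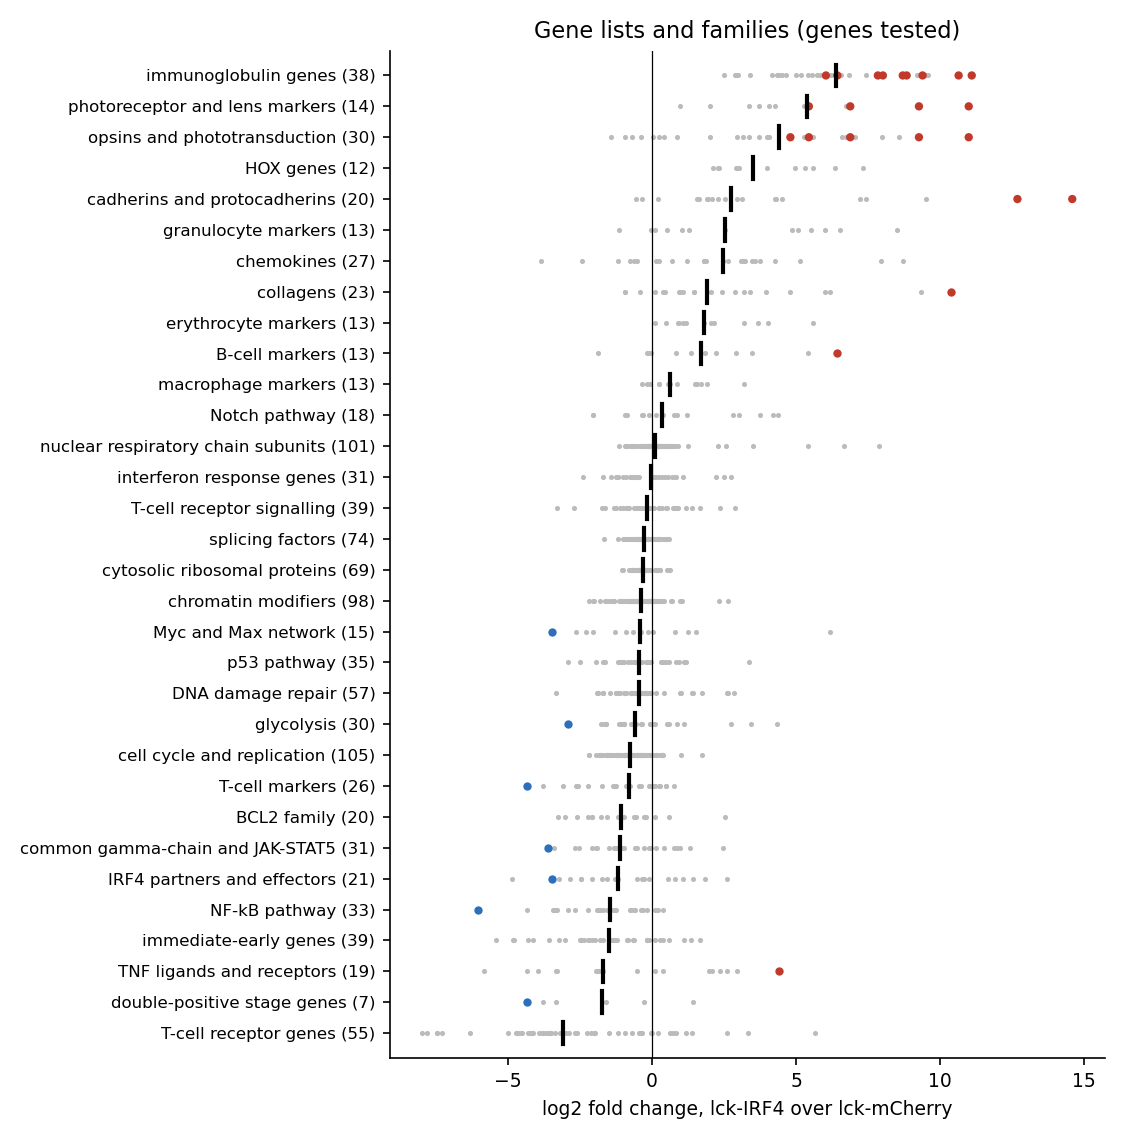
Each grey point is a tested gene of the list named at the left (number of genes tested in parentheses), with its log2 fold change of lck-IRF4 over lck-mCherry on the x axis; red and blue points are genes called higher and lower, and black bars are medians. Medians ran from -3.08 for T-cell receptor genes to 6.40 for immunoglobulin genes. Lists such as cell cycle and replication had a negative median without a called gene. Members near 0 in thymus are drawn only because the tumours passed the filter, which raises the medians of such lists. Likewise, members near 0 in tumours are drawn only because other libraries passed it, which lowers medians, as among T-cell receptor genes.

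Cell-cycle and survival genes gave no call. Of 105 cell cycle and replication genes tested, both tumours lay below both controls in 59 and above both in 3. Over all genes tested these shares were 22.1% and 24.7%. The list's median log2 fold change was -0.75. The mitotic kinase gene cdk1 had 166 and 149.9 CPM in tumours and 259.9 and 353 CPM in thymus (adjusted p = 0.20). Transcripts of pcna, the sliding clamp of replication, were at 900.5 and 1254 CPM in tumours and 1175 and 2239.7 CPM in thymus, and those values overlapped. The BCL2 family sets the threshold for apoptosis. Both tumours lay below both controls in 12 of its 20 genes tested and above both in 0, beside the same shares of all genes. The survival gene mcl1a had 818 and 703 CPM in tumours and 2469 and 4619 CPM in thymus (-2.22 ± 0.52, adjusted p = 0.093). Its paralog mcl1b had a log2 fold change of 0.11. Those of the family members bmf2, bcl2l11 and bida were lower than that of mcl1a, at -3.27, -3.03 and -2.60, and none was called. The p53 pathway had 0 calls among 35 genes and a median of -0.44. Both tumours lay below both controls in 12 and above both in 3, beside the same shares of all genes. Its target cdkn1a, a cell-cycle brake, was at 3.56 and 3.96 CPM in tumours and 30.4 and 12.01 CPM in thymus (adjusted p = 0.12). This gene does not stand for the pathway, where 10 genes had a positive log2 fold change. Those of mdm2, ccng1 and sesn3 were -0.08, 0.38 and 3.37.

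Medians of the housekeeping functions given next lay between -0.39 and 0.13, beside 0.0022 for all genes tested. Cytosolic ribosomal proteins had a median log2 fold change of -0.33 over 69 genes, nuclear respiratory chain subunits 0.10 over 101, splicing factors -0.26 over 74, chromatin modifiers -0.39 over 98, and proteasome subunits 0.13 over 52, with 0 calls in each. In the same order, 10, 61, 23, 21 and 33 genes had a positive log2 fold change, beside 50.09% of all genes tested. Summed ribosomal protein levels were 27605 and 33163 CPM in tumours and 21902 and 61398 CPM in thymus, so the groups overlapped. Among 30 glycolysis genes, 1 was called, beside 0.949% of all genes tested. The glucose transporter gene slc2a3b fell to 10.7 and 8.07 CPM in tumours, against 72.9 and 68.2 CPM in thymus (7.504-fold lower, -2.91 ± 0.46, adjusted p = 0.043). Immunoproteasome genes were at or near 0 in 1 tumour library. Transcripts of psmb8a were at 0 and 843 CPM in tumours and 173 and 226 CPM in thymus, and psmb13a was at 0 and 469 CPM in tumours and 148 and 144 CPM in thymus. In the same lck-IRF4 replicate 1, psmb12 had 0 CPM and psmb9a 0.445 CPM, against 205 and 413 CPM in replicate 2. The peptide transporter gene tap2a followed, with 3.56 and 391 CPM in tumours and 188 and 56.05 CPM in thymus. None of these 5 genes was called, and each value in tumours depended on the library.

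Further named genes fell, and the transferase gene ggt1l2.2 had 0 CPM in both tumours and 38.56 and 58.9 CPM in thymus, at least 249-fold lower when 3 counts over the group are taken as the floor (adjusted p = 0.027). Transcripts of SMIM30 were at 0.111 and 0 CPM in tumours and 72.8 and 68.9 CPM in thymus (adjusted p = 0.023). The scaffold gene anks1b had 6.12 and 2.69 CPM in tumours and 238 and 599 CPM in thymus (93.6-fold lower, -6.55 ± 0.81, adjusted p = 0.027). Others were ms4a17a.4, grasp, prr18, eva1ba, rgs5b and lpar2b, with log2 fold changes from -6.14 in ms4a17a.4 to -3.60 in lpar2b. Of these, rgs5b encodes a brake on G-protein signalling and had 28.4 and 24.2 CPM in tumours and 202 and 595 CPM in thymus (adjusted p = 0.046). The lysophosphatidic acid receptor gene lpar2b had 6.12 and 8.07 CPM in tumours and 62.1 and 109.5 CPM in thymus (adjusted p = 0.038). No called gene in this direction overlapped between groups.

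The highest fitted fold changes were in 2 adhesion genes. The protocadherin gene pcdh12 (ENSDARG00000076594.4), which in mammals encodes an adhesion protein of endothelium, had 101 and 724 CPM in lck-IRF4 tumours and 0 CPM in both lck-mCherry libraries. That is at least 1804-fold higher against a floor of 3 counts over the control group (adjusted p = 0.031), with a spread of several-fold between the tumours. The cadherin gene cdh29 (ENSDARG00000100131.2) had 133 and 87.5 CPM in tumours and 0 CPM in both controls, at least 482-fold higher (adjusted p = 0.023). In lck-IRF4;p53+/- tumours, pcdh12 had 967 and 439 CPM, whereas cdh29 had 0 CPM in both. Of 102 cadherin and protocadherin genes, 20 were tested and these 2 were called. Another 44 fell below the filter and 38 were at 0 in all libraries, and members near 0 in thymus were tested only through the tumours, so the family's direction is not read. The neural cadherin gene cdh2 had 49.5 and 96.9 CPM in tumours and 11.2 and 5.44 CPM in thymus (adjusted p = 0.063).

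Matrix and integrin genes had single calls. The collagen gene col15a1b had 26.9 and 17.7 CPM in tumours and 0 CPM in both controls, at least 97.6-fold higher (adjusted p = 0.027), out of 23 collagen genes tested. The fibronectin gene fn1a rose to 8.79 and 13.8 CPM in tumours, against 0.873 and 0.320 CPM in thymus (18.2-fold, 4.18 ± 0.66, adjusted p = 0.044), a call lost when the 4 libraries were fitted alone. The integrin gene itga3a rose to 37.4 and 27.7 CPM in tumours, against 2.76 and 3.36 CPM in thymus (10.6-fold, adjusted p = 0.049), with 1.502 and 1.72 CPM in lck-IRF4;p53+/- tumours. The galectin-binding gene lgals3bpb rose to 211 and 213 CPM in tumours, against 7.28 and 4.16 CPM in thymus (36.8-fold, 5.20 ± 0.51, adjusted p = 0.023), and was called in all 9 alternatives that kept every library.

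Chemokine receptors, cytokines and killer-cell genes also had members that rose. The receptor gene ccr6a, whose mammalian counterpart guides lymphocytes to mucosal tissue, had 818 and 703 CPM in tumours and 16.005 and 32.0 CPM in thymus (31.7-fold, 4.99 ± 0.64, adjusted p = 0.027). It was the member called of 16 chemokine receptor genes tested. Among ligands, ccl36.1 had 246 and 269 CPM in tumours and 1.02 and 0.160 CPM in thymus without passing the test (adjusted p = 0.061), and none of 27 was called. Of 14 interleukin genes, il10, an anti-inflammatory cytokine, rose to 39.9 and 59.5 CPM in tumours, against 0.582 and 0.961 CPM in thymus (63.4-fold, 5.99 ± 0.66, adjusted p = 0.023). The death ligand gene faslg, used by cytotoxic T cells to kill targets, rose to 50.8 and 32.3 CPM in tumours, against 0.146 and 1.28 CPM in thymus (57.9-fold, 5.86 ± 0.94, adjusted p = 0.044). It was the member called of 23 gamma-delta and cytotoxic effector genes tested. Among granule genes of killer cells, gzmk had 9.23 and 19.9 CPM in tumours and 12.7 and 16.5 CPM in thymus, with overlapping groups. This gene does not stand for the others. The genes prf1.2, nkl.1, nkl.4 and prf1.1 had log2 fold changes of 6.813, 5.949, 4.199 and 1.947, none called. Those of gzm3.3 and gzm3.4 were -0.453 and -0.648, also not called. Over the 23 effector genes the median was 1.42. Both tumours lay above both controls in 12 and below both in 3, beside 24.7% and 22.1% of all genes tested. The interferon gamma gene ifng1-1 had 10.8 and 23.1 CPM in tumours and 0.291 and 0.480 CPM in thymus (adjusted p = 0.061). Its paralog ifng1-2 had a log2 fold change of only 0.294 and was not called, so ifng1-1 does not stand for both.

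**Figure D3:**
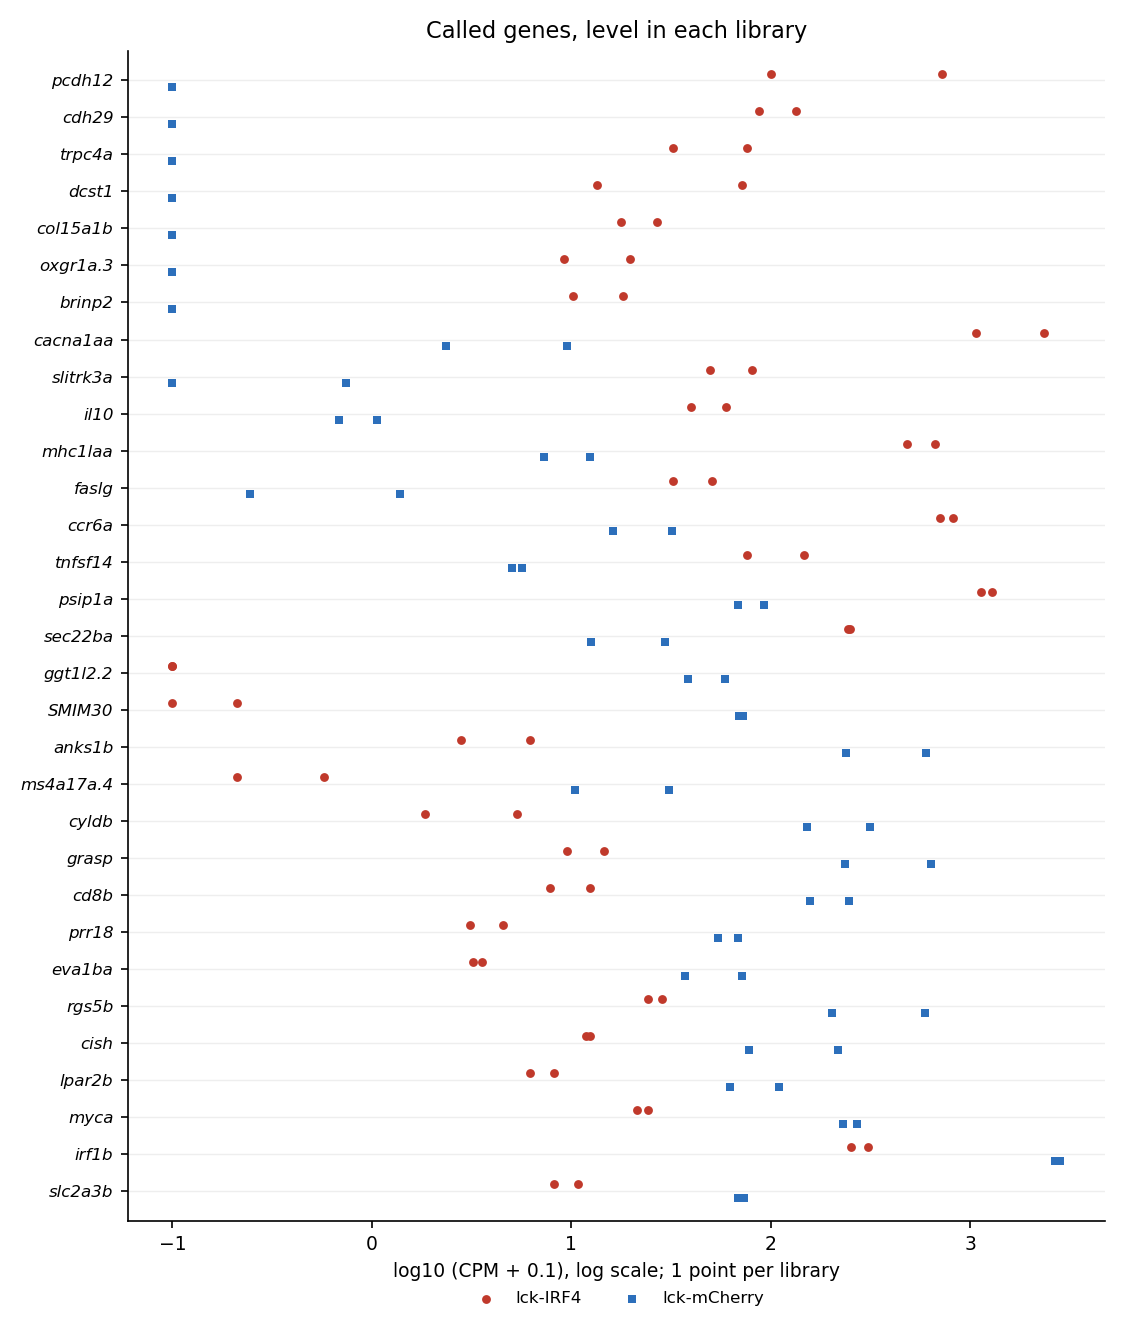
Levels of 31 called genes on a log10(CPM + 0.1) axis, 1 point per library, with lck-IRF4 tumours as red circles above lck-mCherry thymus as blue squares in each row; points at the left edge are libraries at 0. In each row the red and blue points do not overlap, and pcdh12 shows the wide spacing of its 2 tumour libraries at 101 and 724 CPM.

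In antigen presentation, 1 class I gene was called. The divergent class I gene mhc1laa rose to 484 and 665 CPM in tumours, against 12.4 and 7.21 CPM in thymus (58.5-fold, 5.87 ± 0.49, adjusted p = 0.021). The other 10 MHC genes tested were not called. For instance, mhc1uba had 529.7 and 13.6 CPM in tumours and 1712 and 1073 CPM in thymus. Another of them, mhc1lia, went the other way, with a log2 fold change of 3.103. Both tumours lay above both controls in 2 of the 11 MHC genes and below both in 4. Over all genes tested these shares were 24.7% and 22.1%. The invariant light chain gene b2m is not among the 11. It had 519 and 691 CPM in tumours and 495 and 609.8 CPM in thymus and was not called. Reads of MHC genes can be shared between near-identical copies and haplotypes, so values of single members are uncertain. The endosomal receptor gene tlr7 (ENSDARG00000068812.6), a sensor of viral RNA, had 72.0 and 49.5 CPM in tumours and 0.291 and 0 CPM in thymus (adjusted p = 0.041), among 11 toll-like receptor genes tested.

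Further genes called higher came from different families. The calcium channel gene cacna1aa had 1073 and 2341 CPM in tumours and 9.46 and 2.24 CPM in thymus (290-fold, 8.18 ± 0.88, adjusted p = 0.023). It was the channel called of 30 tested, whose median log2 fold change was 0.76. The cation channel gene trpc4a had 32.3 and 76.0 CPM in tumours and 0 CPM in both controls, at least 237-fold higher (adjusted p = 0.027). The receptor tyrosine kinase gene flt3, which marks early blood progenitors in mammals, had 90.6 and 585 CPM in tumours and 7.13 and 2.402 CPM in thymus (70.29-fold, 6.13 ± 1.02, adjusted p = 0.047). The chromatin-tethering gene psip1a rose to 1286 and 1134 CPM in tumours, against 68.2 and 92.4 CPM in thymus (15.1-fold, 3.91 ± 0.52, adjusted p = 0.027). The vesicle-trafficking gene sec22ba rose to 244 and 251 CPM in tumours, against 12.5 and 29.3 CPM in thymus (11.8-fold, 3.57 ± 0.57, adjusted p = 0.044). Transcripts of slitrk3a, a neuronal adhesion protein, were at 80.1 and 49.2 CPM in tumours and 0 and 0.641 CPM in thymus (adjusted p = 0.027). Also called were dcst1 and brinp2, both at 0 CPM in the 2 controls.

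Genes of other cell types were among those called higher. The photoreceptor and lens list held 30 genes, 14 of them tested, with 4 called higher, beside 0.708% of all genes tested. Members near 0 in thymus were tested only through the tumours. Rhodopsin, rho, had 887 and 414 CPM in tumours and 0.437 and 0.160 CPM in thymus (2032-fold, log2 fold change 10.99 ± 0.78, adjusted p = 0.014). Because its thymus values were near 0, the size of this fold is uncertain. The rod transducin gene gnat1 had 145 and 52.4 CPM in tumours and 1.46 and 0.160 CPM in thymus (118-fold, 6.88 ± 0.96, adjusted p = 0.031), and the rod phosphodiesterase gene pde6b had 47.2 and 26.0 CPM in tumours and 1.31 and 0.320 CPM in thymus (adjusted p = 0.049). The summed level of the list was 1180.5 and 545.5 CPM in tumours, 359.9 and 573.8 CPM in lck-IRF4;p53+/- tumours and 9.31 and 4.16 CPM in thymus. No crystallin gene of 57, which make up the lens, had enough counts to be tested. The part of RNA from other cells in these values was not tested.

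Immunoglobulin genes had the highest median of all families. Of 62 genes, 38 were tested and 9 were called higher, beside 0.708% of all genes tested. The median log2 fold change was 6.40. Both tumours lay above both controls in all 38, beside 24.7% of all genes tested. Genes near 0 in the controls pass the filter only through the tumours, so these counts are descriptions. The gene listed as ighv1-4 (ENSDARG00000096355.4), which the current name table calls ighm, the heavy chain of IgM, had 102 and 44.9 CPM in tumours and 1.02 and 0.641 CPM in thymus (86.3-fold, 6.43 ± 0.83, adjusted p = 0.027). The variable segment ighv8-3 had 56.8 and 16.6 CPM in tumours and 0 CPM in both controls, at least 161-fold higher (adjusted p = 0.036). Segments can share reads with near-identical copies. The summed level of the family was 994 and 448 CPM in lck-IRF4 tumours, 23.0 and 123.3 CPM in lck-IRF4;p53+/- tumours and 13.4 and 15.5 CPM in thymus. Among B-cell markers beyond immunoglobulins, cd79a was at 29.1 and 23.3 CPM in tumours and 6.98 and 13.5 CPM in thymus (adjusted p = 0.42) and blnk was at 87.5 and 66.3 CPM in tumours and 18.04 and 15.2 CPM in thymus (adjusted p = 0.059). Of the 13 B-cell genes tested, the 1 called was this ighm gene, already counted above, and no B-cell gene outside the immunoglobulins was called. Both tumours lay above both controls in 9 of the 13 and below both in 0. The genes cd40, cd74a, cd74b and ciita had log2 fold changes from -1.86 to -0.04. The summed B-cell list was 2623 and 2006 CPM in tumours and 2047 and 2546 CPM in thymus, so its groups overlapped.

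**Figure D4:**
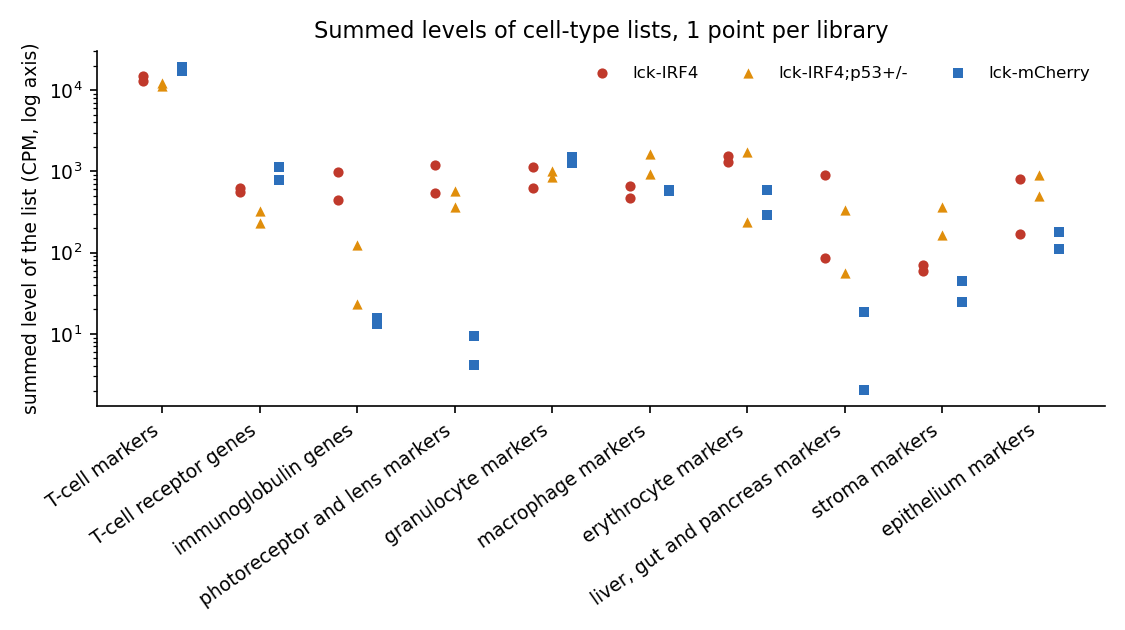
Summed level of each cell-type list (CPM, log axis) with 1 point per library, for lck-IRF4 (red circles), lck-IRF4;p53+/- (orange triangles) and lck-mCherry (blue squares). T-cell markers sum to between 11333 and 19298 CPM, whereas immunoglobulin genes reach 994 and 448 CPM in lck-IRF4 libraries and 13.4 and 15.5 CPM in lck-mCherry libraries.

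The gut and liver genes named next differed between the 2 tumour libraries as well as from thymus. Lists of blood cells follow them. The fatty-acid binding gene fabp2 had 177 and 31.0 CPM in tumours and 0 and 0.320 CPM in thymus (adjusted p = 0.046), and fabp1b.1 had 173 and 32.0 CPM in tumours and 0.146 and 0 CPM in thymus (adjusted p = 0.027). Both were several-fold higher in lck-IRF4 replicate 1. The apolipoprotein gene apoa1a showed this more strongly, with 588 and 29.8 CPM in tumours and 0.291 and 2.24 CPM in thymus (adjusted p = 0.068). The summed liver, gut and pancreas list, which does not hold fabp1b.1, was 899.1 and 86.6 CPM in tumours and 2.04 and 18.6 CPM in thymus. Of its 13 genes tested, 1 was called. Both tumours lay above both controls in 4 and below both in 0, beside 24.7% and 22.1% of all genes tested. The pancreas genes prss59.1, prss59.2, ela3l and ela2 went the other way, with log2 fold changes from -1.80 to -0.07. Of 13 granulocyte genes none was called. The summed level was 1132 and 625.6 CPM in tumours and 1503 and 1273 CPM in thymus, while both tumours lay above both controls in 8 single genes and below both in 1, with a median log2 fold change of 2.53. The gene lyz, lysozyme, had 10.6 and 6.49 CPM in tumours and 0 and 0.160 CPM in thymus (adjusted p = 0.058). Of 13 erythrocyte genes none was called, and the summed level was 1552 and 1304 CPM in tumours and 291.6 and 597.8 CPM in thymus. The alpha globin gene hbaa2 had 228 and 176 CPM in tumours and 3.06 and 5.28 CPM in thymus (adjusted p = 0.084). The summed macrophage list was 666.5 and 471.6 CPM in tumours and 592.9 and 571.7 CPM in thymus, so its groups overlapped, while both tumours lay above both controls in 6 of its 13 genes and below both in 0, with a median of 0.61 and no call. What share of any result these other cell types contributed was not tested.

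Single members of further families were called higher. The complement gene cfbl, a factor B of the alternative pathway, had 103 and 63.9 CPM in tumours and 7.42 and 6.25 CPM in thymus (12.2-fold, adjusted p = 0.044), 1 of 20 complement genes tested. The growth factor gene fgf18a had 51.4 and 13.8 CPM in tumours and 1.02 and 0.480 CPM in thymus (42.3-fold, adjusted p = 0.048), and the calcium-binding gene s100u had 23.7 and 26.6 CPM in tumours and 0.582 and 1.121 CPM in thymus (29.1-fold, adjusted p = 0.049). The orphan receptor gene gpr158b had 25.9 and 55.7 CPM in tumours and 0.146 and 0 CPM in thymus (adjusted p = 0.027), while the metabolite receptor gene oxgr1a.3 was at 9.12 and 19.6 CPM in tumours and 0 CPM in both controls (adjusted p = 0.049). The zinc-finger genes znf1125 and znf1126 were the 2 called of 176 with numbered symbols. Of 106 TRIM genes tested, the fish-specific gene ftr06 (ENSDARG00000053450.8) was the 1 called, with 30.0 and 44.9 CPM in tumours and 2.62 and 4.80 CPM in thymus (adjusted p = 0.049). None of these groups overlapped. Beside 0.949% of all genes, 0 of 211 ubiquitin ligases and proteases were called, 0.446% of 224 solute carriers (1 gene, lower) and 2.90% of 69 G protein-coupled receptors (1 gene in each direction). The last family was drawn from gene names and does not hold every such receptor called higher here.

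The study discussed some genes by name from other assays of such tumours, so their direction here is not independent evidence. Of its 9 tumour genes with values, psip1a and sec22ba were called. The histone variant gene h2afx, whose protein marks broken DNA, had 1183 and 1314 CPM in tumours and 400.3 and 354 CPM in thymus (log2 fold change 1.73 ± 0.34, adjusted p = 0.066). The membrane protein gene lrrn1 had 90.5 and 162 CPM in tumours and 20.95 and 2.08 CPM in thymus (adjusted p = 0.12). Both tumours lay above both controls for these 2 genes without a call. The groups overlapped for midn, patl1, ncaldb and sla2, as in midn with 1305 and 7353 CPM in tumours and 3273 and 2564 CPM in thymus (adjusted p = 0.74).

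HOX genes, which pattern the body axis, were low in each library and had no call among 12 tested. Another 28 of the 48 HOX genes fell below the filter, and with a summed level of 1.16 and 4.96 CPM in thymus, those tested passed it mainly through the tumours, so their direction is not read. The highest level in tumours was that of hoxc4a, with 9.56 and 4.91 CPM in tumours and 0.291 and 1.601 CPM in thymus (adjusted p = 0.15). Factors known as T-ALL proto-oncogenes had 1 call in 13, which was myca, and mef2ca had 15.3 and 28.5 CPM in tumours and 344 and 165 CPM in thymus (adjusted p = 0.059). These 2 genes do not stand for the list, whose median log2 fold change was 0.11. Both tumours lay above both controls in 6 of its genes and below both in 2. The paralog mef2cb had a log2 fold change of 2.32 and was not called.

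The abundance ranks cover genes with recovered counts only, and left-out genes such as mt-co1 and eef2b had higher deposited means. Of the 10 most abundant genes ranked in each group, the highest in tumours included h1f0, a linker histone gene of resting cells, with 4261 and 4549 CPM, against 536 and 745 CPM in thymus (log2 fold change 2.78 ± 0.50, adjusted p = 0.056). A gene without an assigned name, si:dkeyp-13d12.23, rose to 4608 and 5417 CPM in tumours, against 385 and 510.0 CPM in thymus (11.2-fold, 3.48 ± 0.39, adjusted p = 0.023), and was the most abundant gene called. The first place among ranked genes, clec16a, rested on 1 tumour library, with 142 and 11299 CPM in tumours and 216 and 177 CPM in thymus. In thymus the phosphatase gene dusp2 led the ranked genes, with 1624 and 1145 CPM in tumours and 2543 and 5280.4 CPM in thymus (adjusted p = 0.48). The differentiation inhibitor gene id3 had 516 and 662 CPM in tumours and 1089.7 and 5059 CPM in thymus (adjusted p = 0.13).

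The tumours with 1 mutant p53 allele were set against the same 2 controls, so their fold changes share those controls with the ones above and are given as levels. For tnfsf14, lck-IRF4 tumours had 147 and 75.7 CPM, against 2.75 and 1.23 CPM in lck-IRF4;p53+/- tumours and 5.53 and 4.96 CPM in thymus. For faslg, lck-IRF4 tumours had 50.8 and 32.3 CPM, against 1.38 and 1.84 CPM in lck-IRF4;p53+/- tumours. The lck-IRF4;p53+/- tumours had, for mhc1laa, 533 and 579.8 CPM, for cacna1aa 1253 and 1680.5 CPM and for il10 78.6 and 39.5 CPM, and for these 3 genes the values of the 2 kinds of tumour overlapped. For myca they had 22.9 and 13.97 CPM and for cd8b 8.76 and 3.31 CPM. Tested directly against lck-IRF4;p53+/-, lck-IRF4 tumours differed in 1 gene at an adjusted p under 0.05, and tnfsf14 and faslg were not that gene.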

How the data were processed

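Per the labels, the libraries were strand-specific, paired-end and sequenced on a BGISeq500 from total RNA; the submitters' processing notes name STAR 2.5.2a, featureCounts 1.6.1, DESeq2 1.12.4 and GRCz11, with no role given. The authors deposited whole-number counts per transcript, without gene names, and 2 gene tables whose mean signal per gene (counts divided by size factors, averaged over 4 libraries) is listed beside fold changes, their errors and p-values of the authors' own comparisons, which were not used. Since the mean holds 15 digits, the whole counts behind it were recovered by search: 23151 of 23228 genes (99.7%) had exactly 1 solution, and 77 were left out. Recomputed size factors differed by at most 0.260%. Library order was set from transcript means found in the tables (22 against 2 for the next best order). The planned test on transcripts summed per gene could not be run, since nothing pairs transcripts with genes, so recovered gene counts were tested with edgeR 4.0.16 (quasi-likelihood, TMM, filterByExpr, all 6 libraries sharing 1 spread, Benjamini-Hochberg), and transcripts as an alternative. CPM are per TMM-scaled total. SE is the log2 fold change divided by the root of F. A floor of 3 counts over the group bounds folds against 0. Totals of 6072102 to 7941563 counts set the precision, and floors cover counting error only. With 2 libraries a group, an exact permutation test cannot go below a two-sided p of 0.333.

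The genes named are those called with non-overlapping groups, a mean of at least 10 CPM and an assigned name, the 12 with the largest change in each direction, plus up to 4 called members per list or family and direction, genes the study discussed and the 10 most abundant per group. Others named for a list's pattern, including members that were not called, were chosen after their values were seen. Of the called genes, 27 have clone names. The 46 lists and 68 name-based families were chosen with earlier results of these data known, and families were trimmed of misnamed members after values were seen, so list medians and counts are descriptions with no test. Promoter motifs were not analysed here. Alternatives were RLE scaling, other filters, the 4 libraries alone, DESeq2 1.42.0, limma-voom (limma 3.58.1), a replicate block, single transcripts and leaving out each library; the deposited size factors were an alternative chosen after seeing the data.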

Additional observations from a re-analysis of the deposited data

Results flagged for a closer look

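The gene jac2 differed between the 2 kinds of tumour in a test of that difference across all genes (edgeR, adjusted over 14123 genes). It had 0 CPM in both lck-IRF4 libraries, 378 and 236 CPM in both lck-IRF4;p53+/- libraries and 0.437 and 0.641 CPM in lck-mCherry libraries, and the fitted log2 difference of lck-IRF4 minus lck-IRF4;p53+/- was -14.15, a value set in part by the prior count.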

How the results depend on the processing

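The 134 calls became 135 with RLE scaling, 139 with a filter of 1 CPM in 2 libraries and 129 transcripts. They became 1624 with no filter, 421 with the 4 libraries alone (132 of the 134 among them), 1388 with DESeq2 on 6 libraries, 1281 with DESeq2 on 4 and 10 with limma-voom. The deposited size factors on 4 libraries, an alternative chosen after seeing the data, gave 439. Leaving out 1 library gave 0 to 406 calls, with a lone library assumed to vary like the other groups. The cause of these changes was not tested. Of the calls, 74.6% were higher, against 62.8% with no filter, 64.6% with 4 libraries, 61.4% and 57.1% with DESeq2, 62.0% with the deposited size factors and 94.4% without lck-IRF4 replicate 2. The median of all genes moved to 0.136 with no filter, 0.150 and 0.227 with DESeq2, and 0.196 and 0.227 without lck-mCherry replicate 1 and 2. No named called gene changed direction in any alternative. Of 57 such genes, limma-voom kept 5 calls, leaving out lck-IRF4 replicate 1 kept 19 and leaving out either lck-mCherry library kept 0.

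No label says that replicate numbers pair the samples (replicate 1 minus 2 correlated at 0.068 between lck-mCherry and lck-IRF4, 0.26 between lck-mCherry and lck-IRF4;p53+/- and -0.0076 between both kinds of tumour), and a replicate block gave 177 calls, 117 of them among the 134. Depth limits low genes: 40 genes called higher had at most 3 counts in each lck-mCherry library, and the 77 genes left out were all abundant.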
